A study of Mus musculus with 466 samples.

Results

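The deposited arrays titled mesenteric adipose tissue were taken from obese male C57BL/6J mice during caloric restriction, and the comparison described here sets the arrays of day 21 against those of day 0. Both days held 12 mice, and in each group 6 animal IDs opened with the letter J and 6 with the letter N. These 24 arrays are part of 79 arrays of that depot and of 466 arrays in the whole series. The day 0 mice had not yet been restricted, and the day 21 mice were other animals that had been restricted for 21 days. All later mice were restricted, and the contrast therefore includes time on study and age. The labels give no age, diet composition or degree of restriction, and they do not say what J and N stand for, so the letter entered the model only as an additive term. Gene expression was measured on Affymetrix arrays, each hybridised with biotin-labelled total RNA from 1 mouse. Values are linear intensities on which the mean of an array lies close to 1, and a change is a difference in log2 intensity, day 21 minus day 0, ± the standard error (SE) of the limma fit.

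Adipose tissue stores triglyceride in adipocytes, and its other cells include macrophages and other leukocytes, endothelium, fibroblast-like progenitors and, on the surface of abdominal depots, mesothelium. In obesity the tissue expands, deposits collagen and recruits leukocytes, and its adipocytes secrete leptin and acute phase proteins. Energy restriction draws on the stored triglyceride. The cell cycle genes listed below are transcribed in dividing cells, the sterol genes under the SREBP transcription factors.

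Some markers of these arrays and of the other depots went against the labels. Adipoq, the adiponectin gene that marks adipocytes, had a median of 18.1 at day 0 and 18.4 at day 21, and it lay between 17.5 and 19.1 on all 24 arrays. Fabp2, the fatty acid binding protein gene of intestine, was at a day 0 median of 0.0282, against 12.999 in the depot labelled subcutaneous. Adam7, a gene of the epididymis, exceeded an intensity of 1 on 14 of the 79 arrays labelled mesenteric and on 0 of 75, 80 and 78 arrays of the depots labelled perigonadal, perirenal and subcutaneous. Wt1, a mesothelial and visceral fat gene, had a median of 0.462, against 0.0197 in the depot labelled perigonadal, where Tbx15, a gene of subcutaneous fat, had 0.482 against 0.0468 here. The tissue is therefore called the depot labelled mesenteric throughout, and no other name is given to it.

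Several arrays also stood apart within the group. The mean log2 level of 17 epithelial junction genes, measured from the day 0 median, exceeded 0.5 on 1 day 0 array (J40, 2.19) and on 6 day 21 arrays. Of these 6, J1 reached 2.08, N11, N26, N91 and N99 lay between 0.994 and 1.12, and J10 was at 0.58. Just below the threshold were J17 (0.432), N50 (0.293) and J42 (0.274) at day 0. The 22 genes of motile cilia, the beating cilia of duct epithelium, moved in part with them, and the 4 N arrays ranged from 1.26 to 1.39 while the 5 arrays J3, J8, J91, J2 and N3 lay between -0.142 and 0.161. The array of N91 was also high in 15 skeletal muscle genes (1.02). The 10 epididymal genes were high on J40 (1.93) and J1 (1.602), with J42 next (0.789). The list of junction genes and the threshold were chosen after the arrays' scores on 4 marker lists had been seen. The main results below are given with all arrays and without these 7, which leaves 11 mice at day 0 and 6 at day 21. The fit without the 7 arrays also left out the arrays of other days above the threshold. These were 2 on day 3, 4 on day 7, 2 on day 14, 3 on day 42 and 2 on day 60. All days enter the shared estimate of the spread.

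**Figure D1:**
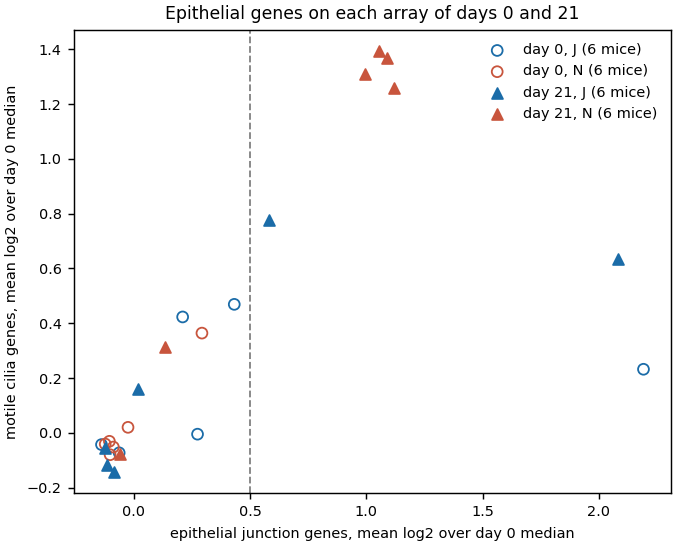
Each point is 1 array of the depot labelled mesenteric at day 0 (circles) or day 21 (triangles), for J (blue) and N (red) mice. The horizontal axis is the mean log2 level of epithelial junction genes and the vertical axis that of motile cilia genes, both measured from the day 0 median. The dashed line marks the threshold of 0.5; 6 day 21 arrays and 1 day 0 array lie to its right, and the N arrays of day 21 above it carry the highest cilia scores.

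At day 21 the depot carried lower transcript levels of 25 of 27 cell division genes, of the 3 collagen VI chains, of 9 of 18 sterol synthesis and uptake genes and of 6 of 17 acute phase and neutrophil genes, Saa3 and S100a8 among them, than at day 0. Vnn1, Inmt and Chrdl1 were higher. Of 13478 genes tested, 2231 (16.6%) passed the limma test at an adjusted p under 0.05, with 1151 higher (8.54%) and 1080 lower (8.01%). The median change over all genes was 0.00. With each array centred on its median, 846 genes were higher and 1325 lower, so the balance of the 2 directions depends on the scaling. Most changes were small: 346 of the higher and 248 of the lower genes differed by 20% or more, 9 had at least doubled and 4 had at least halved. The values of all 12 mice of day 21 lay outside the range of the 12 day 0 mice for 25 genes (0.185%), 23 of them lower.

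Without the 7 arrays high in epithelial junction genes the count of calls was 909, with 354 genes higher (2.63%) and 555 lower (4.12%). Of the genes called lower with all arrays, 495 were also called lower without these arrays, and of those called higher, 311 were. With the scores of junction and cilia genes as covariates instead, 1760 genes were called. The reduced fit also has 6 fewer day 21 mice and fewer arrays of most other days. How much of the loss of calls comes from the number of arrays was not tested.

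**Figure D2:**
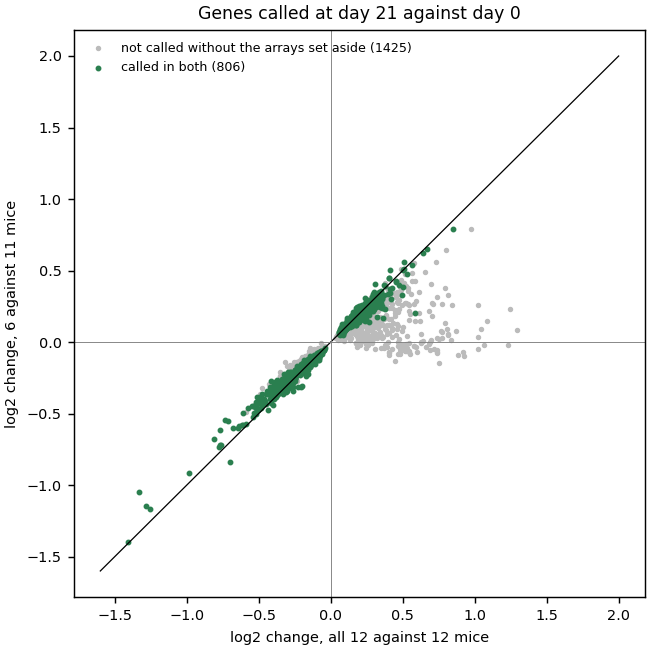
Each point is 1 of the 2231 genes called at day 21 against day 0; the horizontal axis is the log2 change with all 12 against 12 mice and the vertical axis the log2 change with the 6 against 11 mice left without the arrays high in epithelial junction genes. Green points are the 806 genes called in both fits and the line marks equal values. Genes that were lower lie near the line, while many that were higher have values near 0 on the vertical axis.

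Steep falls were found in the acute phase and neutrophil list. Saa3, serum amyloid A3, an acute phase protein made by fat and macrophages, ranged from 4.995 to 7.17 at day 0 (median 5.92) and from 1.69 to 4.93 at day 21 (median 2.37). The groups did not overlap, and the change was -1.25 ± 0.14 (n = 12 and 12, adjusted p = 7.79e-10), or 2.38-fold lower. S100a8, a calcium-binding alarmin of neutrophils and macrophages, ranged from 1.77 to 2.76 at day 0 (median 1.99) and from 0.617 to 1.57 at day 21 (median 1.08), again without overlap, and its change was -0.99 ± 0.13 (adjusted p = 1.10e-07). Its partner S100a9 did not pass the test (0.02 ± 0.17, adjusted p = 0.943). The neutrophil protease gene Prtn3, not counted in that list, was called higher in all 24 fits that left out 1 array (0.39 to 0.49).

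Of the 17 members of that list tested, 6 were lower and 1 higher, against a background of 8.01% and 8.54% of all genes, and the list's median change was -0.07. The other lower members were Lrg1, a leucine-rich glycoprotein (-0.34 ± 0.07), Serpina3n, a serine protease inhibitor (-0.26 ± 0.06), Saa2 (-0.41 ± 0.09) and Chil3, a chitinase-like protein of activated macrophages (-0.76 ± 0.18). Cp, ceruloplasmin, was higher (0.23 ± 0.05, adjusted p = 0.00148). Without the 7 arrays 5 members remained lower, all but Saa2 (-0.36, adjusted p = 0.0681), and Cp was not called (0.14, adjusted p = 0.147). When each of the 24 arrays was left out in turn, 6 to 7 members were lower. The haptoglobin gene Hp, which fat secretes in obesity, was at -0.04 and did not pass (adjusted p = 0.0545).

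**Figure D3:**
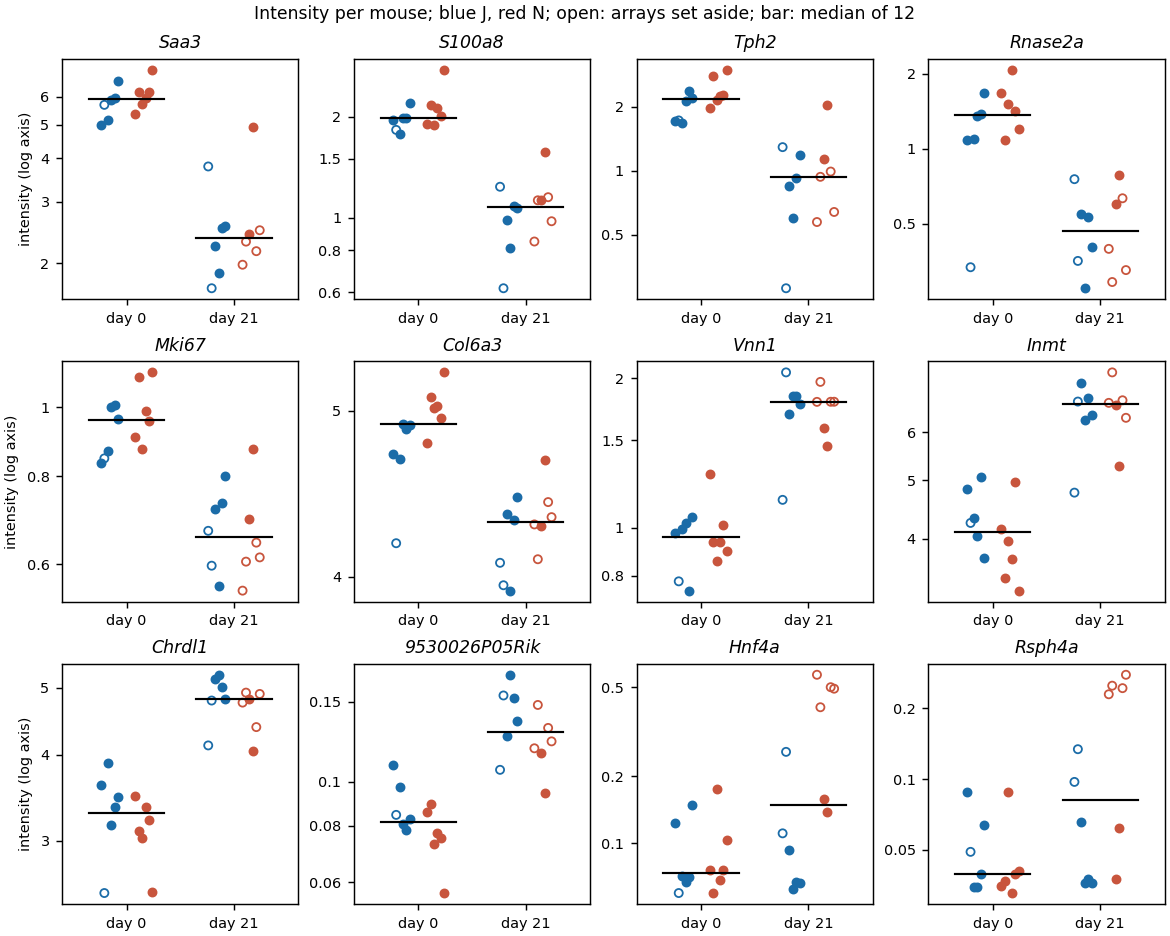
Intensity of 12 genes in each of the 24 mice at days 0 and 21 on log axes, J in blue and N in red, with a bar at the median of 12 mice; open circles are the arrays high in epithelial junction genes. Saa3 and S100a8 lie lower at day 21 in every mouse than in any day 0 mouse and Chrdl1 higher, while Hnf4a and Rsph4a are high at day 21 mainly on the open circles.

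The largest fall of all genes that moved the same way in J and N mice was that of Rnase2a, a ribonuclease of eosinophils and related leukocytes. It ranged from 0.335 to 2.07 at day 0 (median 1.37) and from 0.276 to 0.784 at day 21 (median 0.468), and its change was -1.41 ± 0.22 (adjusted p = 7.54e-06). The lowest day 0 value, that of J40, overlapped the day 21 mice. J40 is among the 7 arrays high in junction genes, and the next lowest day 0 value was 1.08 (J17). Ear2, a related ribonuclease, fell from a median of 7.197 to 5.21 (-0.40 ± 0.08). Of the 11 mast cell and eosinophil genes tested, 1 (Ear2) was lower and 4 were higher with all arrays, against 8.01% and 8.54% of all genes. Among the higher genes was the histidine decarboxylase gene Hdc (0.62 ± 0.14), which makes histamine. Without the 7 arrays Ear2 was still lower, and 0 members were called higher, with Hdc at 0.15 (adjusted p = 0.336). In that fit 4.12% of all genes were lower and 2.63% higher, and 0 of 11 is near the latter share. The count of 4 higher members was 1 without N99 alone and 7 without J1 or J17 alone.

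Tph2, tryptophan hydroxylase of serotonin synthesis, which is best known in neurons, ranged from 1.68 to 2.98 at day 0 (median 2.17) and from 0.280 to 2.04 at day 21 (median 0.930). All 12 mice were below the day 0 mean of their letter, 1 of them (N80) within the day 0 range, and the change was -1.33 ± 0.23 (adjusted p = 3.85e-05). N80 also held the highest day 21 values of Saa3 (4.93), S100a8 (1.57) and Rnase2a (0.784). Without N80 alone 2464 genes were called at day 21. Of the 7 genes of serotonin and GABA synthesis and handling tested, Tph2 was the 1 lower, and 3 were higher with all arrays. Over all genes 8.01% were lower and 8.54% higher. The 3 were Tph1 (0.20), the decarboxylase gene Ddc (0.79) and the serotonin transporter gene Slc6a4 (0.41). The count higher was 0 without the 7 arrays, where 2.63% of all genes were higher. It was 1 without any 1 of N11, N26, N91 and N99. Tph1 was called in 6 of 24 fits that left out 1 array, Ddc in 20 and Slc6a4 in 24. Other genes among the 15 lower genes with the largest change were S100a7l2 (-1.28 ± 0.18), the glycogen synthase gene Gys2 (-0.81 ± 0.13), the dual specificity phosphatase Dusp15 (-0.77 ± 0.12), the acyl-CoA oxidase-like gene Acoxl (-0.77 ± 0.07), the proteoglycan gene Ncan (-0.77 ± 0.16), the proton channel gene Otop1 (-0.71 ± 0.15), the chemokine gene Ccl8 (-0.70 ± 0.11) and the phospholipase gene Pla2g2e (-0.68 ± 0.13). All 15 were also called without the 7 arrays.

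Cell division genes were lower as a group. Of the 27 tested, 25 were lower and 0 higher, against 8.01% and 8.54% of all genes. Without the 7 arrays 22 were lower, against 4.12% of all genes. The list's median change was -0.39 with all arrays and -0.32 without. The count was 25 in each of the 24 fits that left out 1 array. Mki67, which marks dividing cells, ranged from 0.833 to 1.12 at day 0 (median 0.960) and from 0.551 to 0.874 at day 21 (median 0.657), a change of -0.52 ± 0.10 (adjusted p = 0.000104) with overlap of the ranges. Prc1, a protein of the mitotic spindle midzone, fell from a median of 0.570 to 0.390 (-0.52 ± 0.07), and the mitotic kinase gene Aurka from 0.290 to 0.235 (-0.33 ± 0.05). Cdc20, an activator of the anaphase-promoting complex, fell by 0.37 ± 0.05 on the log2 scale and Rrm2, the small subunit of ribonucleotide reductase, by 0.44 ± 0.07. The 2 members that did not pass were the replication helicase subunit Mcm6 (-0.08) and the thymidylate synthase Tyms (-0.06). In bulk tissue, fewer cells of a type and less RNA per cell cannot be told apart.

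The promoters of the 4 cell division genes with the smallest adjusted p are shown because this was the list in which most members moved together. Sequences are the 120 bases before the listed transcript start, on the gene's own strand, from RefSeq on GRCm38.p6. Capitals mark CCAAT on either strand, the box bound by factor NF-Y, and TTTGAA, the core of the element of cell cycle genes known as CHR.
Prc1, chr7:80294331-80294450, plus strand: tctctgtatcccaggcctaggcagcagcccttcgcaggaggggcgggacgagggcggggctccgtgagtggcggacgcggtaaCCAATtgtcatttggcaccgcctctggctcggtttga
Aurka, chr2:172370571-172370690, minus strand: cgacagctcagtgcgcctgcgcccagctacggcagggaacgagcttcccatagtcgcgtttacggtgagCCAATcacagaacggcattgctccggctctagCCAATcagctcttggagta
Cdc20, chr4:118437344-118437463, minus strand: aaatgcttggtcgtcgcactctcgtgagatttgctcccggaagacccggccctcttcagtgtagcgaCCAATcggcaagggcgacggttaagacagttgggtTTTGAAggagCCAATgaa
Rrm2, chr12:24708134-24708253, plus strand: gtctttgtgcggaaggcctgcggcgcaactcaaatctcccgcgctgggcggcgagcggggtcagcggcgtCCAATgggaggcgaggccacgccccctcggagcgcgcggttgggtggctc

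Over the 250 bases before the start, 21 of the 25 lower cell division genes had a listed promoter, and 18 of these held CCAAT on either strand, against 34.5% of all 27025 listed promoters. TTTGAA was in 7 of the 21, against 16.3% of all promoters. Bases past the listed start were not searched, so a match that lies across or after it is not counted. Of the 9 lower sterol genes, 8 held CCAAT and 1 held TTTGAA. The sterol element TCACNCCAC was in 1 of the 9, Hmgcs1, and in 0 of the 21 cell division promoters, against 1.04% of all. In all 6 motifs were searched on both strands, the others being TTTGAAA, TCACNCCA and TCACCCCAC, which overlap those given. A match describes the letters only and is not evidence of binding.

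Collagen genes moved the same way by smaller amounts. Of 18 tested, 12 were lower and 0 higher (median -0.14), against 8.01% and 8.54% of all genes. Without the 7 arrays 6 were lower, against 4.12% of all genes, and with 1 array left out 9 to 12 were lower. The 3 chains of collagen VI, which surrounds adipocytes, were all lower and stayed so without these arrays. Col6a3 ranged from 4.18 to 5.26 at day 0 (median 4.91) and from 3.93 to 4.68 at day 21 (median 4.30), a change of -0.19 ± 0.04 (adjusted p = 0.000976). Col6a2 changed by -0.20 ± 0.04 and Col6a1 by -0.14 ± 0.03. The basement membrane chains Col4a1 (-0.12 ± 0.03) and Col4a2 (-0.10 ± 0.03) and the fibril-forming Col5a2 (-0.22 ± 0.05) also held. Col1a1, the main fibrillar chain, was at -0.12 ± 0.05 and did not pass (adjusted p = 0.075).

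Of 30 other matrix proteins and proteases, 5 were lower and 4 higher, against 8.01% and 8.54% of all genes. Without the 7 arrays 2 were lower and 2 higher, against 4.12% and 2.63% of all genes. Timp1, an inhibitor of metalloproteases induced in inflamed fat, fell by 0.41 ± 0.09 on the log2 scale, and Serpinh1, the collagen chaperone, by 0.16 ± 0.04. The small proteoglycan decorin, Dcn, was higher (0.13 ± 0.03), as was Timp4 (0.18 ± 0.04), which fat expresses. These 4 genes kept their calls without the 7 arrays.

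Sterol synthesis genes were lower in part. Of 18 tested, 9 were lower and 2 higher (median -0.12), against 8.01% and 8.54% of all genes. Without the 7 arrays 6 were lower and 1 higher. Of these, 5 of the lower genes and the higher gene were also called with all arrays. With 1 array left out 8 to 11 were lower. Lss, lanosterol synthase, ranged from 0.951 to 1.197 at day 0 (median 1.08) and from 0.801 to 1.04 at day 21 (median 0.859), a change of -0.32 ± 0.06 (adjusted p = 0.000141). Dhcr7, the enzyme of the last step of cholesterol synthesis, changed by -0.25 ± 0.05, the sterol dehydrogenase Nsdhl by -0.29 ± 0.06 and Hmgcs1, the HMG-CoA synthase at the start of the pathway, by -0.10 ± 0.02. Hmgcs1 was not called without the 7 arrays (-0.07, adjusted p = 0.116). Fdft1, squalene synthase, moved the other way (0.19 ± 0.05), and Srebf2, the SREBP that drives the pathway, was at 0.01 (adjusted p = 0.900).
The promoters of the 2 sterol genes with the smallest adjusted p are shown in the same way, with CCAAT and TCACNCCAC in capitals.
Dhcr7, chr7:143823047-143823166, plus strand: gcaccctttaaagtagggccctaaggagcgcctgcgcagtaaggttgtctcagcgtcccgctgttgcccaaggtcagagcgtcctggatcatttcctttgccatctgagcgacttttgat
Lss, chr10:76531485-76531604, plus strand: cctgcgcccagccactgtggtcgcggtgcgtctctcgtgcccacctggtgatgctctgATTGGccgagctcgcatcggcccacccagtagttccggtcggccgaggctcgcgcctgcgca

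A minority of the fatty acid and triglyceride synthesis genes were lower. Of 26 tested, 5 were lower and 1 higher (median 0.00), against 8.01% and 8.54% of all genes. Without the 7 arrays 3 of the lower genes kept their calls, and 1 other gene was called higher. The lower count was also 3 without J10 or N26 alone. Acss2, which makes acetyl-CoA from acetate, fell from a median of 3.03 to 2.32 (-0.33 ± 0.07), and the mitochondrial citrate carrier Slc25a1 from 3.27 to 2.62 (-0.32 ± 0.06). Fasn, fatty acid synthase, ranged from 11.2 to 12.5 at day 0 (median 12.02) and from 10.2 to 11.9 at day 21 (median 10.8), a change of -0.14 ± 0.04 (adjusted p = 0.0103). Mlxipl, the carbohydrate-responsive factor ChREBP, was higher with all arrays (0.26 ± 0.07) but not without the 7 (0.21, adjusted p = 0.0677). Scd1, the stearoyl-CoA desaturase, was at 0.01 and Srebf1 at 0.02, and neither passed.

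Of 22 genes of fatty acid oxidation and ketone use, 4 were lower and 0 higher, against 8.01% and 8.54% of all genes. The list's counts were the same without the 7 arrays. Slc25a20, the carnitine carrier, changed by -0.10 ± 0.03, and Oxct1, which activates ketone bodies, by -0.09 ± 0.03. Oxct1 was not called when N11 or N99 was left out (highest adjusted p = 0.0594), and the other lower members Cpt2 and Ehhadh, enzymes of fatty acid oxidation, were called in 8 and 17 of 24 fits that left out 1 array. The list's count of 4 was 2 without any 1 of J1, J2, J42, J43, J53, N11, N30 and N99. Of the 21 oxidative phosphorylation genes, 0 passed the limma test with all arrays or without the 7, and 3 had an unadjusted p under 0.05 with all arrays. The citrate synthase gene Cs was the only 1 of 24 citrate cycle and branched-chain amino acid genes called (-0.05 ± 0.01).

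Among the adipocyte genes, the acyl-CoA synthetase Acsl1 fell from a median of 14.9 to 14.1 (-0.07 ± 0.01) and Gpd1, glycerol-3-phosphate dehydrogenase, from 12.3 to 11.2 (-0.12 ± 0.04). Pck1, which makes glycerol-3-phosphate from non-sugar precursors in fat, rose from 9.86 to 11.1 (0.22 ± 0.06), and Cfd, the adipokine adipsin, from 16.5 to 18.5 (0.17 ± 0.04). These 4 were also called without the 7 arrays. In all 3 of 18 adipocyte identity genes were higher and 3 lower, against 8.54% and 8.01% of all genes. Without the 7 arrays 2 were higher and 2 lower, and without J40 alone 1 was higher.

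Lep, the leptin gene, was at 17.3 to 18.4 at day 0 (median 18.1) and 15.8 to 17.9 at day 21 (median 17.6). Its change of -0.05 ± 0.05 did not pass (adjusted p = 0.463), although 12 of 12 mice lay below the day 0 mean of their letter. Lep was called lower in the limma fit of N mice alone (-0.05, adjusted p = 0.0371) but not in that of J mice alone (-0.06). The day 0 median of Lep was the 25th highest of the genes tested, and the highest of all was 27.6. Among the 268 genes with a day 0 median over 10, the median absolute change was 0.03, against 0.07 for the 5768 genes between 0.1 and 1, so changes on the log2 scale were smaller for the brightest genes. Mest, an imprinted gene that marks fat expansion, was at 9.57 and 8.26 (-0.26 ± 0.09, adjusted p = 0.0433), and its call was lost without the 7 arrays (-0.18, adjusted p = 0.375) and it was called in 11 of 24 fits that left out 1 array. Pparg, Lpl and Pnpla2 (the lipase ATGL) changed by 0.03, -0.02 and 0.05, and none of them passed.

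Of 14 thermogenic genes, 3 were lower and 1 higher, against 8.01% and 8.54% of all genes. Without the 7 arrays 3 were lower and 0 higher. Dio2, the deiodinase that activates thyroid hormone, ranged from 0.0865 to 0.132 at day 0 (median 0.103) and from 0.0605 to 0.0833 at day 21 (median 0.0665). The groups did not overlap and the change was -0.61 ± 0.08 (adjusted p = 1.80e-07), at a level near the low end of the scale. Cox8b, a cytochrome oxidase subunit of brown fat and muscle, changed by -0.38 ± 0.10. Both were also called without the 7 arrays. Ucp1, the uncoupling protein of brown fat, was at 0.0699 and 0.0690 and did not pass (-0.01 ± 0.10). Cidea, a lipid droplet gene, was called higher with all arrays (0.30 ± 0.11, adjusted p = 0.0475) and in 7 of 24 fits that left out 1 array.

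Markers of macrophages moved little. Of 18 tested, 1 was lower, Itgam (-0.31 ± 0.10), and its call was lost without the 7 arrays (-0.22, adjusted p = 0.249) and without N26. Adgre1, the F4/80 antigen gene, was at 4.57 and 4.41 (-0.10 ± 0.06, adjusted p = 0.205), Itgax, the CD11c gene, at -0.06 and the chemokine gene Ccl2 at -0.06, and none of these passed. The 17 lipid-associated macrophage genes and 18 interferon genes held 0 limma calls, with 3 and 2 at an unadjusted p under 0.05. Of the 12 class II antigen presentation genes, 3 were lower (2 without the 7 arrays), against 8.01% of all genes (4.12% without the 7 arrays). Among them were Ciita, the transactivator of the class (-0.36 ± 0.08, adjusted p = 0.000591), and H2-DMa (-0.22 ± 0.06). Both kept their calls without the 7 arrays. The chemokine receptor gene Ccr2, which guides monocytes into tissue, was also lower (-0.38 ± 0.09) and kept its call.

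Genes that were higher in both fits included Vnn1, the pantetheinase gene, which ranged from 0.748 to 1.28 at day 0 (median 0.957) and from 1.14 to 2.05 at day 21 (median 1.79). Its change was 0.85 ± 0.10 (adjusted p = 3.80e-09), or 1.80-fold, and 0.79 without the 7 arrays. Inmt, an indolethylamine methyltransferase, rose from a median of 4.10 to 6.69 (0.64 ± 0.07, adjusted p = 6.92e-10), and 12 of 12 mice lay above the day 0 mean of their letter. Chrdl1, an antagonist of bone morphogenetic proteins, ranged from 2.52 to 3.89 at day 0 and from 4.04 to 5.22 at day 21, with no overlap (0.56 ± 0.07, adjusted p = 3.80e-09).

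Vnn1 was the only 1 of the 15 higher genes with the largest change in the fit of all arrays that was called without the 7 arrays. The largest higher genes of the reduced fit were picked after the values were seen. They included the uncharacterised 9530026P05Rik (0.67 ± 0.10), the calcium channel gene Cacna1e (0.51 ± 0.10), the sialyltransferase St6galnac5 (0.51 ± 0.10), periplakin Ppl (0.50 ± 0.10), the activin antagonist follistatin Fst (0.46 ± 0.09) and the metalloprotease Mmp11 (0.40 ± 0.08), all values from the fit of all arrays. Of the antioxidant genes, Gstm1 (0.10 ± 0.02) and Gpx3 (0.29 ± 0.06) rose and Sod2, the mitochondrial superoxide dismutase, fell without overlap (-0.17 ± 0.03, adjusted p = 1.09e-06). Iron genes moved in both directions, with the exporter Slc40a1 higher (0.35 ± 0.06) and Hfe lower (-0.38 ± 0.07). These 5 genes kept their calls without the 7 arrays. Of 18 clock genes, 4 were higher and 0 lower, against 8.54% and 8.01% of all genes. The output factor Hlf (0.34 ± 0.06) and Nr1d2 (0.10 ± 0.03) were also higher without the 7 arrays, though Nr1d2 lost its call when N26 or N74 was left out. Per3 and Tef also lost theirs without N74, which left 1 of the 18, Hlf, higher.

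The other 14 of the 15 higher genes with the largest change were not called without the 7 arrays. Their changes there lay between -0.10 and 0.26, except that of Cldn11, a claudin of tight junctions, which was at 0.79 ± 0.33 (adjusted p = 0.143) against 0.97 with all arrays. Iyd, an iodotyrosine deiodinase, had a median of 0.0704 at day 0 (0.0602 to 0.194) and 0.231 at day 21 (0.0657 to 0.636), a change of 1.29 ± 0.40 (adjusted p = 0.0180) with overlap. Without the 7 arrays its change was 0.08 (adjusted p = 0.922). Hnf4a, a transcription factor of liver, kidney and gut epithelium, was at 1.04 with all arrays and 0.09 without, and Rsph4a, a radial spoke protein of motile cilia, at 1.02 and -0.05. Hnf4a lost its call when any 1 of N11, N26, N91 and N99 was left out, and Rsph4a also when J10 was. The 15 also held Bex1, Slc7a9, Igfbp1, Sall1, Clic6, Mcoln3, Fgfr4, Crabp1, Ak7 and Mmd2.

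Of the 17 motile cilia genes tested, 7 were higher with all arrays (median 0.55) and 0 without the 7 (median -0.09). The shares of all genes called higher were 8.54% and 2.63%. With 1 array left out the count ranged from 2 (without any 1 of N11, N26, N91 and N99) to 12 (without any 1 of J3, J8, J91 and N3). The mean log2 level of the cilia list, measured from the day 0 median, ranged from -0.080 to 0.469 at day 0 and from -0.142 to 1.39 at day 21. The 10 epididymal genes held 0 limma calls, and 0 had an unadjusted p under 0.05. Their part in other results was not tested beyond the fits with and without the arrays.

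Mesothelial genes were higher with all arrays. Of 12 tested, 9 were higher and 0 lower (median 0.50), against 8.54% and 8.01% of all genes. Without the 7 arrays 0 were called at a median of 0.36. In that fit 2.63% of all genes were higher, and a count of 0 of 12 is near that share. With 1 array left out 7 to 11 were higher. Upk3b, a uroplakin of mesothelium, ranged from 1.24 to 3.80 at day 0 (median 2.32) and from 2.18 to 4.15 at day 21 (median 3.51), a change of 0.49 ± 0.14 (adjusted p = 0.0110), and 0.37 without the arrays (adjusted p = 0.186). Wt1 rose from a median of 0.462 to 0.592 (0.38 ± 0.10, adjusted p = 0.00466) and was at 0.30 without the arrays (adjusted p = 0.0849). Tcf21, a visceral fat progenitor factor, was higher in both fits (0.30 ± 0.06 and 0.23).

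**Figure D4:**
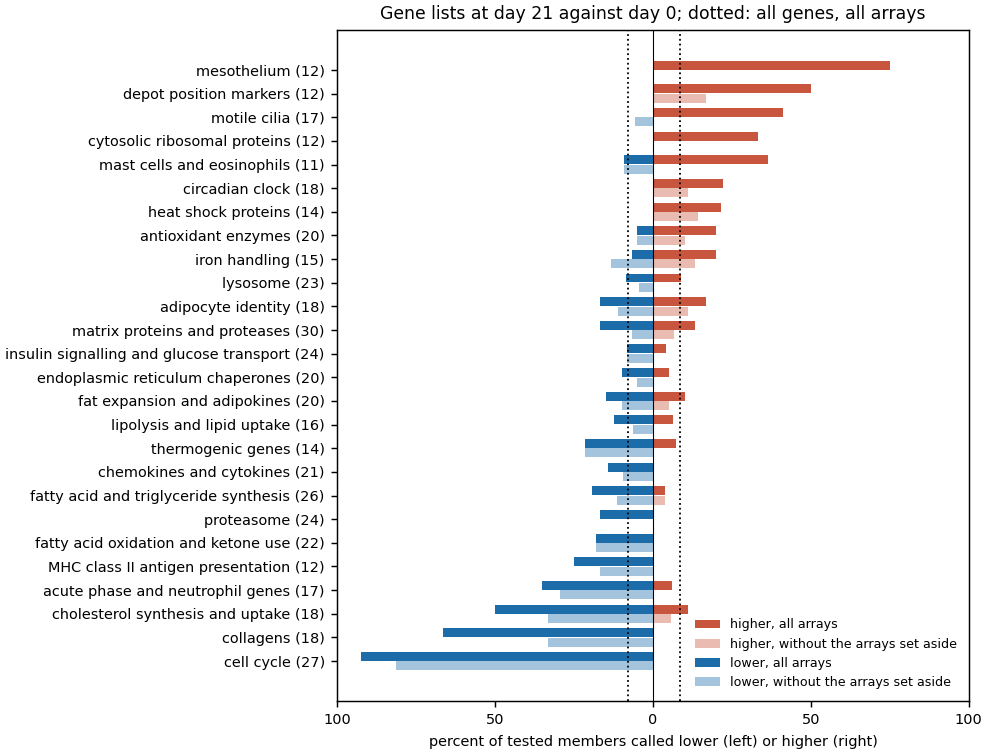
Bars give the percent of tested members (number in parentheses) that were called lower (left, blue) or higher (right, red) at day 21 in each list with at least 10 tested members and 3 calls, with all arrays (dark) and without the arrays high in epithelial junction genes (pale). Dotted lines are the shares of all genes with all arrays, 8.01% lower and 8.54% higher. Without the arrays high in junction genes the shares were 4.12% and 2.63%. Cell division genes lie farthest to the left, and the bars of mesothelium and cilia genes on the right have no pale counterpart of the same direction.

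Lists near these backgrounds included the lysosome (2 higher and 2 lower of 23), endoplasmic reticulum chaperones (1 and 2 of 20), insulin signalling (1 and 2 of 24), lipolysis and lipid uptake (1 and 2 of 16) and the integrated stress response (0 and 1 of 17). In proteasome genes 4 of 24 were lower and in cytosolic ribosomal protein genes 4 of 12 higher, with changes no larger than 0.08, and 0 of either were called without the 7 arrays. The proteasome count was 2 without any 1 of 8 arrays (J3, J5, J10, N6, N11, N30, N91 and N99). The 17 glucocorticoid response genes and 13 T and natural killer cell genes held 0 limma calls, with 5 and 1 at an unadjusted p under 0.05.

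The letters were compared with an interaction term. No gene's day 21 change differed between N and J mice at an adjusted p under 0.05, and 607 genes had an unadjusted p under 0.05 (161 without the 7 arrays). Fitted alone, the J mice gave 52 calls (6 higher, 46 lower) and the N mice 3116 (1808 and 1308). Without the 7 arrays the J mice gave 768 calls, from 4 day 21 mice, and the N mice 1, from 2. Saa3 changed by -1.27 in J and -1.24 in N mice, Prc1 by -0.42 and -0.63, and Vnn1 by 0.88 and 0.82. Hnf4a was at 0.17 in J and 1.91 in N mice. Of the day 21 arrays high in junction genes, 4 were of N and 2 of J mice.

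Day 21 lay between the earlier and later days in its count of calls. Against the same day 0 mice, 6 genes were called after 1 day and 73 after 3. The count was 517 on day 7 and 587 on day 14, and after the 2231 of day 21 it reached 4339 on day 42 and 3524 on day 60. Without the arrays high in junction genes it was 6 on day 1, 240 on days 3 and 7, 692 on day 14, 909 on day 21, 5128 on day 42 and 3247 on day 60, so the counts of days 3 and 7 also moved by over 1.5 times. The number of mice differed between 5 and 12 per day. Day 1 held only J mice (5) and day 60 only N mice (6), so their values rest on the additive letter term. All days share the day 0 mice. Inmt was higher by 0.57 ± 0.09 at day 1, and its change lay between 0.44 (day 7) and 0.80 (day 60) over the days. That of Vnn1 lay between 0.55 (day 60) and 0.85 (day 21). Saa3 was at -0.26 on day 3 without a call, at -0.76 ± 0.14 on day 7 and at -1.48 ± 0.14 on day 42. Mki67 was first called at day 21 (-0.52) and was at -0.76 ± 0.10 on day 42, and Fasn, lower at day 21, was at -0.02 on day 42 and did not pass there.

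**Figure D5:**
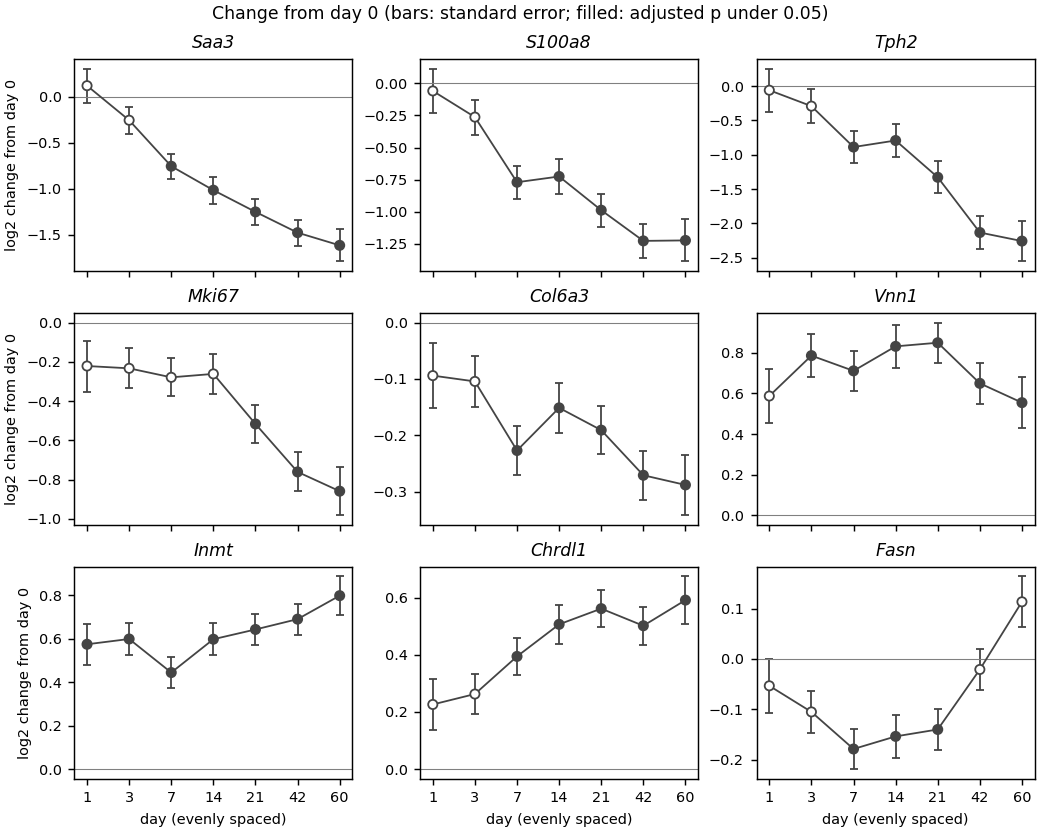
Change from day 0 in log2 intensity (vertical axis, bars give the standard error) of 9 genes at the days of restriction (horizontal axis, evenly spaced), with filled points for adjusted p under 0.05. All days share the day 0 mice. Saa3, S100a8 and Tph2 lie lower on the later days, Mki67 is filled from day 21 on, Vnn1 and Inmt were high from the first week, and Fasn was lowest at days 7 to 21.

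Neighbouring days were also set against each other, which does not use day 0. Between days 14 and 21, 0 genes passed the limma test and 1529 had an unadjusted p under 0.05. Between days 21 and 42, 201 genes (1.49%) passed, 69 higher and 132 lower at day 42. Acaca, acetyl-CoA carboxylase, was higher at day 42 by 0.29 ± 0.07 (adjusted p = 0.0204), as were the acyl-CoA thioesterase Acot4 (0.30 ± 0.08), the asparagine synthetase Asns (0.26 ± 0.06) and the protease Pcsk4 (0.29 ± 0.05). Lower at day 42 were the kinase Cdkl4 (-0.69 ± 0.13), the lipase Lipf (-0.73 ± 0.17), Mgam (-0.90 ± 0.16) and Fndc7 (-0.89 ± 0.25), and the last 2 were not called without the arrays high in junction genes (-0.35 and -0.07).

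The day 21 change was compared with that in the other depots, whose animals were largely the same. Against the depot labelled perigonadal, 19 of 12987 genes differed (0.146%), 5 with a higher and 14 with a lower change in the depot labelled mesenteric, and 5 with within-animal differences in place of unpaired arrays. Il1r2, the decoy receptor of interleukin-1, changed by -0.55 here and 0.61 there, and Dusp15 by -0.77 and -0.04, a difference of -0.73 ± 0.12 (adjusted p = 0.00226, and 0.0263 with pairing). Plin5, a lipid droplet protein of oxidative tissues, changed by 0.29 here and -0.10 there (difference 0.39 ± 0.07, adjusted p = 0.00226, and 0.00507 with pairing). The difference of Il1r2 was not called with pairing (adjusted p = 0.0942) or without the arrays high in junction genes (adjusted p = 0.0830). That of Ccl8 was called without those arrays (-0.92, adjusted p = 0.0328) but not with pairing (adjusted p = 0.0878), and Dusp15 and Plin5 were called with pairing but not without those arrays (adjusted p = 0.0830 and 0.127).

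Against the depot labelled perirenal 0 of 13153 genes (0%) differed, and 618 had an unadjusted p under 0.05. Against that labelled subcutaneous 1 of 13010 (0.00769%) did, Acly, the ATP-citrate lyase, which changed by -0.02 here and 0.18 there (difference -0.20 ± 0.04, adjusted p = 0.0242). With within-animal differences 4 genes differed there. The depots' own fits gave 2634, 458 and 21 calls at day 21 in the depots labelled perigonadal, perirenal and subcutaneous. Saa3 changed by -1.22 in that labelled perigonadal and -1.19 in that labelled perirenal, both called, and by -0.61 in that labelled subcutaneous, which was not.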

How the data were processed

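The members and gene lists were chosen with earlier results of these data known. The authors deposited 1 linear intensity per probe set and array for 466 arrays. Their summarisation and normalization of the intensities are not given in the sources used, and the number of arrays limits the precision. No 2 arrays of the depot were identical. Of 32640 probe sets 25508 carried 1 gene symbol and 7132 none. Symbols were updated through a gene table of GRCm38.p6, used for names.

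The log2 of the deposited intensity was taken with no offset. The probe set with the highest mean stood for a gene, and a gene was kept if its mean exceeded percentile 25 of the means over all probe sets. The 78 arrays labelled mesenteric with a J or N animal were fitted with limma 3.58.1 in R 4.3.3 (trend, robust), with day and letter as terms; 1 day 3 mouse without a letter was left out. P-values, two-sided, were adjusted by Benjamini and Hochberg over all 13478 genes, with calls at an adjusted p below 0.05. Mice on the side of a change were counted against the day 0 mean of their letter. Each mouse is 1 biological sample per its label.

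The interaction of letter and day used the days holding both letters. Differences between depots used the arrays of both depots at days 0 and 21, and the within-animal fit used the same animals' IDs. Residuals of the same animal in 2 depots had a median correlation of 0.149, 0.101 and 0.0174 for the depots labelled perigonadal, perirenal and subcutaneous.

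Named genes were, by rule, the called genes of largest change (15 higher, 15 lower) with the same sign in J and N mice alone, up to 4 called members of each list with the smallest adjusted p, a set of key genes, and 4 each way in other comparisons. Genes named for the fit without the 7 arrays, and the lists of epithelial junctions and motile cilia, were chosen after the values were seen. Other list members are named as parts of their lists. Arrays of any day were set aside at a junction score over 0.5. The steps were tested on simulated data. Alternatives were the samples and terms in the fit, the filter, the probe set rule, the normalization, the variance model and each array left out.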

Additional observations from a re-analysis of the deposited data

Results flagged for a closer look

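The day 21 change differed between depots for the genes listed here, each tested with an interaction term and given as the change in the depot labelled mesenteric minus the change in the other depot. Against the depot labelled perigonadal the differences were 0.81 for Hydin, 0.39 for Plin5, 0.33 for Kcnk2, 0.29 for Bambi, -1.16 for Il1r2, -0.80 for Ccl8, -0.73 for Dusp15 and -0.47 for Fcgr1. With within-animal differences Plin5, Bambi and Dusp15 kept an adjusted p under 0.05 (0.00507, 0.0399 and 0.0263), and the others had values from 0.0742 for Kcnk2 to 0.120 for Hydin. Hydin, a motile cilia gene, had a difference of 0.32 (adjusted p = 0.525) without the arrays high in epithelial junction genes. Against the depot labelled subcutaneous Acly differed by -0.20, with an adjusted p of 0.0382 with pairing and 0.0208 without those arrays. All of these arrays are given by their labels, and the marker genes described above go against some of the labels.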

How the results depend on the processing

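The day 21 count of 2231 stayed within 1.5 times under the arrays of days 0 and 21 alone, no letter term, N mice alone, no filter, a filter at percentile 50, the mean of probe sets, quantile normalization, median centring, the plain variance model and the score covariates (1760 to 3116). It fell to 52 in J mice alone and, with an alternative chosen after seeing the data, to 909 without the arrays high in epithelial genes. Leaving out each array in turn gave 1652 (without N99) to 2553 (without J40). Day 14 against 21 gave 1 call with quantile normalization, and day 42 against 21 gave 385 without the arrays high in epithelial genes. The difference from the depot labelled perigonadal gave 5 calls with the animal as replicate block and 3 without those arrays, and that from the depot labelled subcutaneous 4 with the replicate block, 3 with no filter and 2 without those arrays. The block changed no other count by over 1.5 times. The letter interaction gave 0 calls in every alternative run. The cause of these changes was not tested.

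Some single genes changed sign, and all of those values had an adjusted p over 0.5. In J mice alone Adam7 was at -0.32, Scd1 at -0.0026 and Ucp1 at 0.067, and in N mice alone Mgam was at 0.019. With the mean of probe sets Trf was at -0.0039, and with median centring Scd1 was at -0.0056. Without the arrays high in epithelial genes the values were -0.32 for Adam7, -0.092 for Ak7, -0.0075 for Arntl, -0.035 for Cdhr5, -0.072 for Crabp1, -0.096 for Fgfr4, 0.028 for Itgax, -0.046 for Rsph4a, -0.018 for Sall1, -0.0029 for Scd1, -0.017 for Slc7a9, -0.0065 for Srebf1, 0.042 for Ucp1 and -0.036 for Vil1. With the score covariates they were -0.0050 for Ak7, -0.032 for Arntl, 0.010 for Itgax and -0.023 for Srebf1. Ucp1 ranged from -0.054 to 0.019 when 1 array was left out. The reduced group limits what it can show, since 6 day 21 mice remain.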
